A study of Mus musculus with 9 samples.

Results

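The genes of intraflagellar transport and of the BBSome were followed in mouse testis over the first wave of spermatogenesis. The members were all genes whose symbol begins with Ift or Bbs and a number, together with Ttc8, Arl3, Tulp3, Wdr19, Wdr35, Kif3a, Kif3b, Kifap3, Kif17, Dync2h1 and Dync2li1. These are 33 of the 19935 genes measured, each read by 1 row of the array, and the gene identifiers of all 33 matched RefSeq. Arl6 and Arl13b were also sought and are not analysed here.

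Whole testis of untreated male Swiss albino mice was profiled at 8, 16 and 24 days of age, with 3 arrays for each age. The animals came from an inbred line, and the design text calls the arrays of an age biological replicates. It names the comparisons of 16 with 8, 24 with 16 and 24 with 8 days, which ask how the testis transcriptome changes as the first germ cells pass through meiosis and become spermatids.

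Cilia and flagella are built and kept by intraflagellar transport, in which trains of IFT-A and IFT-B proteins carry tubulin and other cargo along the axoneme. Kinesin-2 motors drive the trains to the tip, dynein 2 brings them back, and the BBSome rides on them as an adaptor for membrane proteins. In the testis the axoneme of the sperm tail is assembled in spermatids, and mice that lack several of these proteins form sperm with short or missing tails.

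Each value below is a log2 value relative to the median of that gene over the 9 arrays, so that it gives a difference between arrays and no expression level. A change is the difference between the means of the 2 ages, with the moderated standard error (SE) of a limma fit over all genes. A gene is said to have risen or fallen where the adjusted p of that fit is under 0.05, 2-sided, after Benjamini-Hochberg adjustment over all 19935 genes. Array values are given in the order of replicates 1, 2 and 3. With 3 arrays an age, their number sets the precision.

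On 2 arrays, 8 days replicate 1 and 16 days replicate 2, the median over 1027 olfactory receptor genes was 0.17, against -0.05 to 0.03 on the others. Without them 23 members rose and 1 fell at 16 against 8 days, 23 rose and 1 fell at 24 against 16 days, and 28 rose and 1 fell at 24 against 8 days. The median change of all genes was -0.02, -0.16 and -0.18 in these 3 comparisons. Centring each array on its median moved them by 0.03, 0.09 and 0.12, and the number of members called at 16 against 8 and at 24 against 16 days stayed at 26 and 20 that rose and 1 and 1 that fell.

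Most members were low at 8 days, near the middle at 16 days and high at 24 days. In a gene with separate ages in this order, the centring places a 16-day array at 0. The middle place of 16 days is thus partly set by the centring. At 16 against 8 days 26 of 33 rose and 1 fell, where 10.4% of all genes rose and 14.3% fell. At 24 against 16 days 20 rose and 1 fell, beside 13.2% and 20.1% of all genes. At 24 against 8 days 29 rose and 1 fell, beside 19.2% and 35.2%. With each array centred, the counts over all genes were 2861 that rose and 1927 that fell at 24 against 16 days, in place of 2641 and 4004, and 4389 and 5236 at 24 against 8 days, in place of 3825 and 7015.

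The median change of the members was 0.89, 0.43 and 1.38 in the same 3 comparisons, and 13, 3 and 23 of them changed upward by at least 1 on the log2 scale. Over all 19935 genes the numbers with such a change were 769, 1072 and 1939. All 3 arrays of the later age lay above all 3 of the earlier age for 27 members at 16 against 8 days, against 14.7% of all genes. The number was 24 at 24 against 16 days, against 16.5%, and 29 at 24 against 8 days, against 20.5%. Of the 33, 30 differed among the 3 ages by the moderated F test, against 50.7% of all genes, and Bbs4, Bbs12 and Ttc8 did not. These are bulk values, in which more cells of a type and more RNA per cell give the same rise and cannot be told apart.

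**Figure D1:**
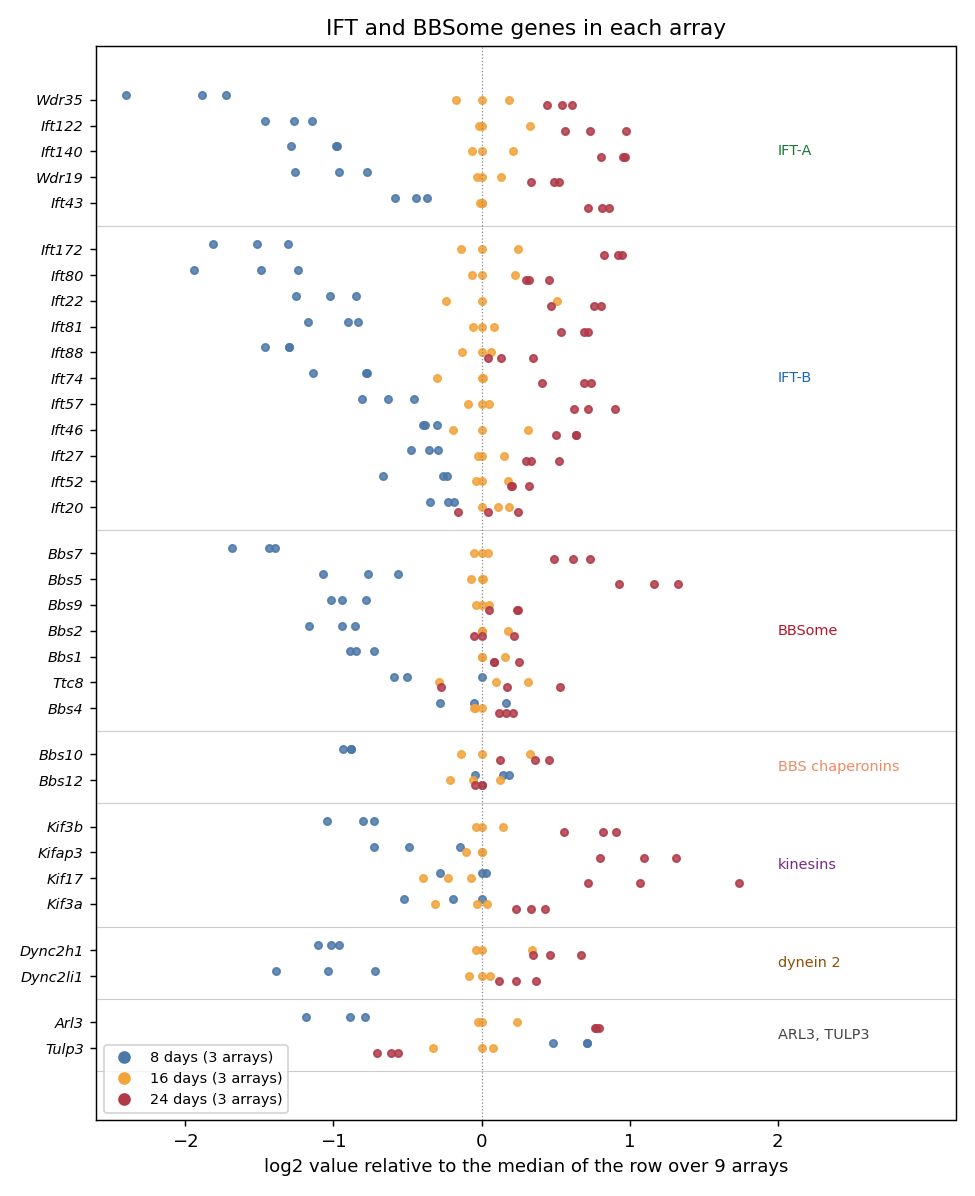
Values of the 33 members in each array, as log2 relative to the median of the gene over the 9 arrays (horizontal axis), with members down the page by role and 1 point per array. Most members run from below 0 at 8 days through about 0 at 16 days to above 0 at 24 days, and Tulp3 runs the other way. Where the ages of a gene are separate and in order, the centring places a 16-day array at 0. In Bbs12 and Ttc8 all ages overlap, and in Bbs4 the 8-day points overlap those of both other ages. Some other members, such as Ift88 and Kif3a, overlap between neighbouring ages.

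IFT-A, the complex needed for return of the trains and for entry of membrane proteins, rose as a whole. All 5 of its measured subunits rose at 16 against 8 days (median 1.13), all 5 at 24 against 16 days (median 0.65) and all 5 at 24 against 8 days (median 1.99). Wdr35, a peripheral subunit of the complex, had the largest rise of all members at 16 against 8 and at 24 against 8 days. Its values were -2.40, -1.73 and -1.89 at 8 days, -0.17, 0.18 and 0.00 at 16 days, and 0.44, 0.61 and 0.54 at 24 days. The 3 ages did not overlap, and Wdr35 rose by 2.01 ± 0.16 (SE, adjusted p = 1.9e-05) at 16 against 8 days and by 2.54 ± 0.16 at 24 against 8 days, a 5.8-fold difference. The core subunits Ift122, Ift140 and Wdr19 behaved alike in direction. Ift122 stood at -1.46, -1.26 and -1.14 at 8 days, 0.00, 0.33 and -0.02 at 16 days, and 0.97, 0.56 and 0.73 at 24 days. Ift140 stood at -1.29, -0.98 and -0.97 at 8 days, 0.00, 0.21 and -0.07 at 16 days, and 0.95, 0.81 and 0.97 at 24 days. Wdr19 stood at -1.26, -0.77 and -0.96 at 8 days, -0.03, 0.13 and 0.00 at 16 days, and 0.34, 0.52 and 0.49 at 24 days. In all 3 of these genes the ages were fully separated in the order 8, 16 and 24 days. At 24 against 8 days Ift122 rose by 2.05 ± 0.14, Ift140 by 1.99 ± 0.11 and Wdr19 by 1.45 ± 0.12 (SE, adjusted p = 1.37e-06, 4.8e-07 and 7.05e-06).

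Ift43, the small peripheral subunit that binds Wdr35, had the smallest first step of the complex. Its values were -0.59, -0.37 and -0.44 at 8 days, 0.00, 0.00 and -0.01 at 16 days, and 0.86, 0.81 and 0.72 at 24 days. The values of 16 days replicates 1 and 2 were deposited blank and read as 0, so that the spread at that age is not measured. The 24-day arrays lay above all others, and Ift43 rose by 0.46 ± 0.09 and then by 0.80 ± 0.09 (SE, adjusted p = 0.00336 and 0.000147). With blanks left missing the first rise was not called (0.46, adjusted p = 0.0636). For 2 subunits the call of the second interval depended on single arrays. Wdr19 changed by 0.42 ± 0.12 (adjusted p = 0.0285) and was not called when any 1 of 16 days replicates 1 and 3 and 24 days replicates 2 and 3 was left out (adjusted p up to 0.0998). Wdr35 changed by 0.53 ± 0.16 (adjusted p = 0.0334) and was not called when any 1 of 16 days replicates 1 and 3 and 24 days replicates 1, 2 and 3 was left out (adjusted p up to 0.124).

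IFT-B, the complex that carries tubulin and other axonemal cargo toward the tip, also rose. All 11 measured members rose at 16 against 8 days (median 0.80), 7 at 24 against 16 days (median 0.55) and all 11 at 24 against 8 days (median 1.51). The largest rises at 24 against 8 days were those of Ift172 and Ift80, a pair of subunits of the peripheral part. Ift172, the largest IFT-B protein, had -1.81, -1.31 and -1.52 at 8 days, 0.00, 0.25 and -0.14 at 16 days, and 0.95, 0.83 and 0.92 at 24 days. Ift80 had -1.94, -1.24 and -1.49 at 8 days, -0.07, 0.23 and 0.00 at 16 days, and 0.30, 0.46 and 0.32 at 24 days. Ift172 rose in both intervals, by 1.58 ± 0.14 and by 0.86 ± 0.14 (SE, adjusted p = 3.3e-05 and 0.00181). Ift80 rose by 1.61 ± 0.16 at 16 against 8 days (adjusted p = 8.11e-05) and changed by 0.31 ± 0.16 at 24 against 16 days (adjusted p = 0.16). That second value passed the threshold when 8 days replicate 1 was left out (adjusted p = 0.0468).

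In the core part, Ift88, the subunit mutated in the Tg737 mouse with short cilia, made nearly all of its change early. It had -1.46, -1.30 and -1.30 at 8 days, -0.13, 0.07 and 0.00 at 16 days, and 0.13, 0.35 and 0.04 at 24 days. The 8-day arrays stood apart, and the 16-day and 24-day arrays overlapped. Ift88 rose by 1.33 ± 0.10 (adjusted p = 1.35e-05) and then differed by 0.20 ± 0.10 (adjusted p = 0.163). Ift74 and Ift81, which together bind tubulin, rose in both intervals. Ift74 had -1.14, -0.77 and -0.78 at 8 days, -0.30, 0.00 and 0.01 at 16 days, and 0.69, 0.74 and 0.41 at 24 days. Ift81 had -1.17, -0.84 and -0.90 at 8 days, -0.06, 0.08 and 0.00 at 16 days, and 0.72, 0.69 and 0.53 at 24 days. Neither gene had overlapping ages, and at 24 against 8 days Ift74 rose by 1.51 ± 0.14 and Ift81 by 1.62 ± 0.11 (SE, adjusted p = 1.17e-05 and 1.11e-06).

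Ift22, a small GTPase-like protein that binds the Ift74 and Ift81 pair, had -1.25, -0.85 and -1.02 at 8 days, 0.00, 0.51 and -0.24 at 16 days, and 0.81, 0.47 and 0.76 at 24 days. At 16 days replicate 2 was above the lowest 24-day array, so that these ages overlapped. Ift22 rose by 1.13 ± 0.19 and by 0.59 ± 0.19 (SE, adjusted p = 0.00184 and 0.0353), and the second rise was not called when any 1 of 8 days replicate 3, 16 days replicates 1 and 3 and 24 days replicates 1 and 3 was left out (adjusted p up to 0.117). Ift57, another subunit of the peripheral part, had -0.81, -0.63 and -0.46 at 8 days, -0.09, 0.05 and 0.00 at 16 days, and 0.90, 0.72 and 0.62 at 24 days. The ages did not overlap, and Ift57 rose by 0.62 ± 0.11 and by 0.76 ± 0.11 (SE, adjusted p = 0.00305 and 0.00105).

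The remaining IFT-B genes had smaller changes. Ift46, whose protein brings outer dynein arms into the flagellum of the alga Chlamydomonas, averaged -0.36 ± 0.05 at 8 days, 0.04 ± 0.26 at 16 days and 0.59 ± 0.08 at 24 days (SD, n = 3 each). It rose by 0.95 ± 0.12 at 24 against 8 days (adjusted p = 9.92e-05). Its first step of 0.40 ± 0.12 (adjusted p = 0.0378) was not called when any 1 of 8 days replicates 1, 2 and 3, 16 days replicates 1 and 2 and 24 days replicates 1, 2 and 3 was left out (adjusted p up to 0.101), and was 0.26 without 16 days replicate 2. Ift27, a GTPase that helps the BBSome leave the cilium, averaged -0.37 ± 0.09, 0.04 ± 0.10 and 0.38 ± 0.12 at 8, 16 and 24 days (SD, n = 3 each). It rose by 0.76 ± 0.10 over both intervals, and its second step of 0.34 ± 0.10 (adjusted p = 0.0224) was not called when any 1 of 16 days replicates 1 and 3 and 24 days replicate 3 was left out (adjusted p up to 0.087).

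Ift52, a scaffold of the core, averaged -0.39 ± 0.24, 0.05 ± 0.12 and 0.24 ± 0.07 at 8, 16 and 24 days (SD, n = 3 each) and rose by 0.63 ± 0.12 over both intervals. Its first step of 0.43 ± 0.12 (adjusted p = 0.0279) was not called when 16 days replicate 2 was left out (adjusted p = 0.0929). Ift20, which also sits at the Golgi, had the smallest change of the complex, with -0.23, -0.19 and -0.35 at 8 days, 0.11, 0.19 and 0.00 at 16 days, and -0.16, 0.25 and 0.04 at 24 days. Its 24-day arrays spread over the whole range of the 16-day arrays. It rose by 0.35 ± 0.11 at 16 against 8 days and by 0.30 ± 0.11 at 24 against 8 days (SE, adjusted p = 0.0462 and 0.048). The first call was lost when any 1 of 8 days replicates 1, 2 and 3, 16 days replicates 1, 2 and 3 and 24 days replicate 3 was left out (adjusted p up to 0.149). The other was lost when any 1 of 8 days replicates 1, 2 and 3, 16 days replicates 1 and 3 and 24 days replicates 2 and 3 was left out (adjusted p up to 0.176), and the change was 0.19 without 24 days replicate 2.

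Of the 7 measured BBSome subunits, 5 rose at 16 against 8 days (median 0.87), 2 at 24 against 16 days (median 0.18) and 5 at 24 against 8 days (median 1.05). Bbs5 and Bbs7 rose in both intervals. Bbs7, 1 of the subunits with a beta-propeller, had -1.68, -1.44 and -1.40 at 8 days, -0.05, 0.05 and 0.00 at 16 days, and 0.49, 0.73 and 0.62 at 24 days. Bbs5, the subunit that binds phosphoinositides, had -1.07, -0.77 and -0.57 at 8 days, -0.07, 0.01 and 0.00 at 16 days, and 1.33, 1.17 and 0.92 at 24 days. All ages were separated in both genes. At 24 against 16 days Bbs5 rose by 1.16 ± 0.14 and Bbs7 by 0.61 ± 0.10 (SE, adjusted p = 0.000323 and 0.00211), and at 24 against 8 days Bbs5 rose by 1.94 ± 0.14 and Bbs7 by 2.12 ± 0.10, a 4.34-fold difference for Bbs7.

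Bbs1, Bbs2 and Bbs9 rose by 16 days and were not called between 16 and 24 days. Bbs2, which pairs with Bbs7, had -1.17, -0.94 and -0.86 at 8 days, 0.00, 0.18 and 0.00 at 16 days, and -0.05, 0.22 and 0.00 at 24 days. Bbs9, which holds the complex together, had -1.02, -0.94 and -0.78 at 8 days, -0.04, 0.00 and 0.05 at 16 days, and 0.05, 0.24 and 0.25 at 24 days. Bbs1, the subunit that binds the GTPase ARL6, averaged -0.82 ± 0.09 and 0.14 ± 0.10 at 8 and 24 days (SD, n = 3 each). Its mean at 16 days was 0.05, with replicates 1 and 3 deposited blank and read as 0. The spread of Bbs1 at that age is therefore not measured. At 16 against 8 days Bbs1 rose by 0.87 ± 0.09, Bbs2 by 1.05 ± 0.11 and Bbs9 by 0.92 ± 0.09 (SE, adjusted p = 0.000101, 0.00012 and 9.25e-05). At 24 against 16 days their changes were 0.09 ± 0.09, 0.00 ± 0.11 and 0.18 ± 0.09 (SE, adjusted p = 0.436, 0.992 and 0.164).

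Bbs4 and Ttc8, the subunits built of tetratricopeptide repeats, passed no test. Bbs4 had -0.28, 0.17 and -0.05 at 8 days, -0.04, -0.05 and 0.00 at 16 days, and 0.12, 0.21 and 0.17 at 24 days. The 24-day arrays were above all 16-day arrays, but 8 days replicate 2 lay among them, and the change at 24 against 8 days was 0.22 ± 0.11 (SE, adjusted p = 0.113). It was called when 8 days replicate 2 was left out (adjusted p = 0.0199), with each array centred (0.34, adjusted p = 0.0498) and with array weights (0.20, adjusted p = 0.0195). Ttc8, which encodes BBS8, averaged -0.37 ± 0.32, 0.04 ± 0.30 and 0.14 ± 0.40 at 8, 16 and 24 days (SD, n = 3 each). Its changes had the largest SE of the 7 subunits, and its change of 0.51 ± 0.23 at 24 against 8 days (adjusted p = 0.0894) was called when any 1 of 8 days replicate 2 and 24 days replicate 1 was left out (adjusted p of 0.0356 and 0.026). It was also called with blanks left missing (0.69, adjusted p = 0.0297) and with array weights (0.57, adjusted p = 0.00975).

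The chaperonin-like proteins BBS10 and BBS12 act in assembly of the BBSome and are not part of it, and 1 of the 2 genes rose. Bbs10 had -0.93, -0.88 and -0.88 at 8 days, -0.14, 0.33 and 0.00 at 16 days, and 0.13, 0.46 and 0.36 at 24 days. Its 8-day arrays lay below all others, and it rose by 0.96 ± 0.13 at 16 against 8 days and by 1.21 ± 0.13 at 24 against 8 days (SE, adjusted p = 0.000575 and 3e-05). Its second step of 0.25 ± 0.13 (adjusted p = 0.151) was called when 16 days replicate 2 was left out (adjusted p = 0.025). Bbs12 had -0.04, 0.14 and 0.18 at 8 days, -0.06, -0.21 and 0.13 at 16 days, and -0.04, 0.00 and 0.00 at 24 days. The 3 ages overlapped, and the change at 24 against 8 days was -0.11 ± 0.10 (SE, adjusted p = 0.398).

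The kinesin genes were called mostly in the second interval, but such calls do not test a difference between the intervals. By limma's test of the second minus the first interval, Kif17 alone was called (1.55, adjusted p = 0.0455), a call that depended on single arrays. The difference was 0.29 for Kif3a, 0.68 for Kifap3 and -0.17 for Kif3b (adjusted p = 0.616, 0.264 and 0.724). Of the 4 kinesin genes 1 rose at 16 against 8 days (median 0.28), and all 4 rose at 24 against 16 days (median 0.91) and at 24 against 8 days (median 1.39). Kif17, the homodimeric kinesin-2, had 0.03, -0.28 and 0.00 at 8 days, -0.23, -0.07 and -0.39 at 16 days, and 1.74, 0.72 and 1.07 at 24 days. Its 8-day and 16-day arrays overlapped and all 24-day arrays were higher, although they spread widely. Kif17 changed by -0.15 ± 0.22 at 16 against 8 days (adjusted p = 0.795) and rose by 1.41 ± 0.22 at 24 against 16 days (adjusted p = 0.00153), a 2.65-fold difference. In mouse spermatids a form of KIF17 is known to carry ACT, the CREM coactivator encoded by Fhl5, out of the nucleus.

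Heterotrimeric kinesin-2 is made of the motor subunits KIF3A and KIF3B and the accessory subunit KIFAP3. Kif3a had -0.52, -0.19 and 0.00 at 8 days, -0.03, -0.32 and 0.04 at 16 days, and 0.23, 0.43 and 0.33 at 24 days. Kif3b had -1.04, -0.73 and -0.80 at 8 days, 0.00, 0.14 and -0.04 at 16 days, and 0.91, 0.55 and 0.82 at 24 days. Kifap3 had -0.73, -0.14 and -0.49 at 8 days, -0.10, 0.00 and 0.00 at 16 days, and 1.31, 1.10 and 0.80 at 24 days. Kif3b was separated at all ages and rose by 0.89 ± 0.12 and by 0.72 ± 0.12 (SE, adjusted p = 0.000541 and 0.002). Kifap3 changed by 0.42 ± 0.16 at 16 against 8 days (adjusted p = 0.091) and rose by 1.10 ± 0.16 at 24 against 16 days (adjusted p = 0.00103). Its first step was called when 8 days replicate 2 was left out (adjusted p = 0.028). Kif3a overlapped between 8 and 16 days and rose by 0.43 ± 0.14 at 24 against 16 days (adjusted p = 0.0427). That call was lost when any 1 of 8 days replicate 2, 16 days replicates 1 and 2 and 24 days replicates 1, 2 and 3 was left out (adjusted p up to 0.12), while Kif3a rose by 0.57 ± 0.14 at 24 against 8 days (adjusted p = 0.00676).

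Both dynein 2 genes rose at 16 against 8 days. Dync2h1, the heavy chain, had -1.10, -0.96 and -1.01 at 8 days, -0.04, 0.34 and 0.00 at 16 days, and 0.34, 0.67 and 0.47 at 24 days. Dync2li1, the light intermediate chain, had -1.39, -0.72 and -1.04 at 8 days, -0.09, 0.00 and 0.05 at 16 days, and 0.23, 0.37 and 0.12 at 24 days. In both genes the ages were in order and did not overlap, although the highest 16-day and the lowest 24-day array of Dync2h1 both round to 0.34. At 16 against 8 days Dync2h1 rose by 1.13 ± 0.12 and Dync2li1 by 1.04 ± 0.15 (SE, adjusted p = 0.000144 and 0.000905). At 24 against 16 days Dync2li1 changed by 0.25 ± 0.15 (adjusted p = 0.213) and Dync2h1 rose by 0.39 ± 0.12 (adjusted p = 0.0346), a call lost when any 1 of 8 days replicate 3, 16 days replicates 1 and 3 and 24 days replicates 2 and 3 was left out (adjusted p up to 0.133).

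**Figure D2:**
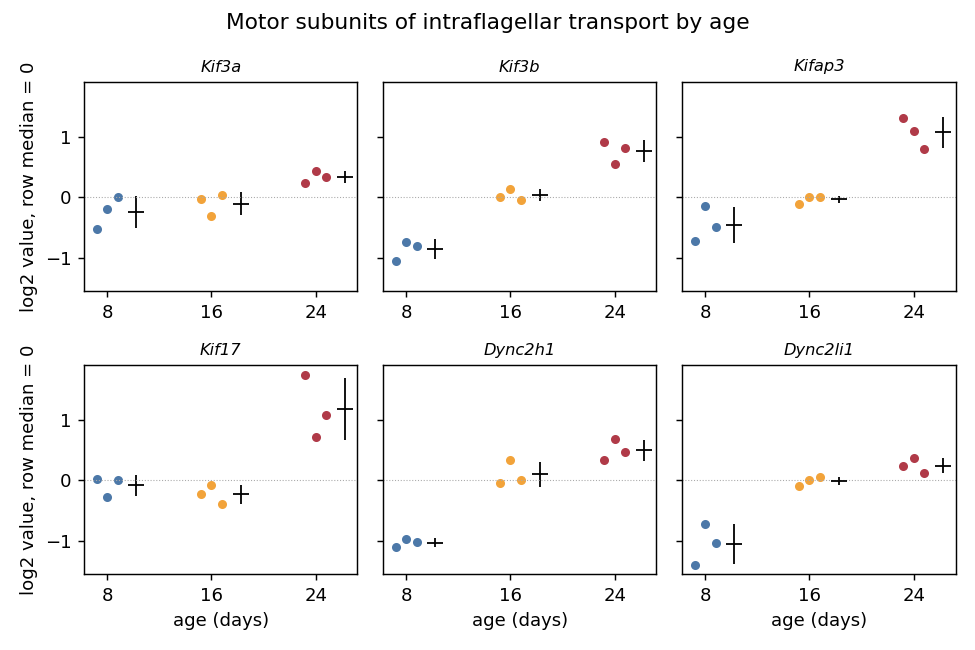
Values of the 6 motor genes in each array, as log2 relative to the median of the gene, by age in days, with 1 point per array and the mean ± SD of 3 arrays beside them in black. Dync2h1, Dync2li1 and Kif3b step up between 8 and 16 days, while Kif17 and Kif3a overlap there and are highest at 24 days.

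Arl3 and Tulp3 moved in opposite directions. ARL3 is the GTPase that releases lipid-modified cargo from its carriers inside the cilium. Arl3 had -1.19, -0.79 and -0.89 at 8 days, 0.00, 0.24 and -0.03 at 16 days, and 0.79, 0.77 and 0.77 at 24 days. The 3 arrays of 24 days were within a narrow band above all others, and Arl3 rose by 1.03 ± 0.12 and by 0.71 ± 0.12 (SE, adjusted p = 0.000188 and 0.00204). TULP3 couples membrane receptors to IFT-A for entry into the cilium. Tulp3 had 0.48, 0.71 and 0.71 at 8 days, 0.08, -0.33 and 0.00 at 16 days, and -0.61, -0.71 and -0.56 at 24 days. It was the 1 member that fell, and did so in all 3 comparisons, with separate ages in the order 24, 16 and 8 days from low to high. Tulp3 fell by 0.72 ± 0.12 at 16 against 8 days, by 0.55 ± 0.12 at 24 against 16 days and by 1.26 ± 0.12 at 24 against 8 days (SE, adjusted p = 0.00197, 0.00788 and 1.41e-05).

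The change of the second interval was set against that of the first within the same fit. The 16-day arrays enter both intervals with opposite signs, so that the 2 changes of a gene are not independent. The difference passed the threshold for 8 members, where 5.38% of all genes did in either direction. It was negative for 7, which changed more between 8 and 16 days. These were Wdr35 (-1.48), Ift80 (-1.30), Ift88 (-1.14), Bbs2 (-1.05), Bbs7 (-0.89), Bbs1 (-0.78) and Bbs9 (-0.74), with adjusted p between 0.00435 for Ift88 and 0.0266 for Bbs9. It was positive for Kif17 (1.55 ± 0.38, SE, adjusted p = 0.0455), which changed more between 16 and 24 days.

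Ift88 and Bbs2 were called with any 1 array left out, and the other 6 were not. The count was 2 without 16 days replicate 2, 3 without 16 days replicate 1 and 4 without 16 days replicate 3. Kif17 was lost when any 1 of 8 days replicates 1, 2 and 3, 16 days replicates 1, 2 and 3 and 24 days replicate 3 was left out (adjusted p up to 0.168). Bbs1 was lost when any 1 of 16 days replicates 1 and 2 was left out, Bbs7 when any 1 of 16 days replicates 1, 2 and 3 was left out and Wdr35 when 16 days replicate 2 was left out (adjusted p up to 0.0645, 0.0653 and 0.0519). Bbs9 was lost when any 1 of 8 days replicate 2, 16 days replicates 1, 2 and 3 and 24 days replicate 1 was left out and Ift80 when any 1 of 16 days replicates 1, 2 and 3 and 24 days replicates 1 and 3 was left out (adjusted p up to 0.117 and 0.0843). With each array centred, Bbs9 (-0.69, adjusted p = 0.0639) and Ift80 (-1.25, adjusted p = 0.054) were not called. With blanks left missing, Bbs1, Bbs7, Bbs9, Ift80 and Kif17 were not called (adjusted p between 0.0641 and 0.107). Dync2li1 (-0.79, adjusted p = 0.148) was called when 8 days replicate 2 was left out (adjusted p = 0.0335).

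**Figure D3:**
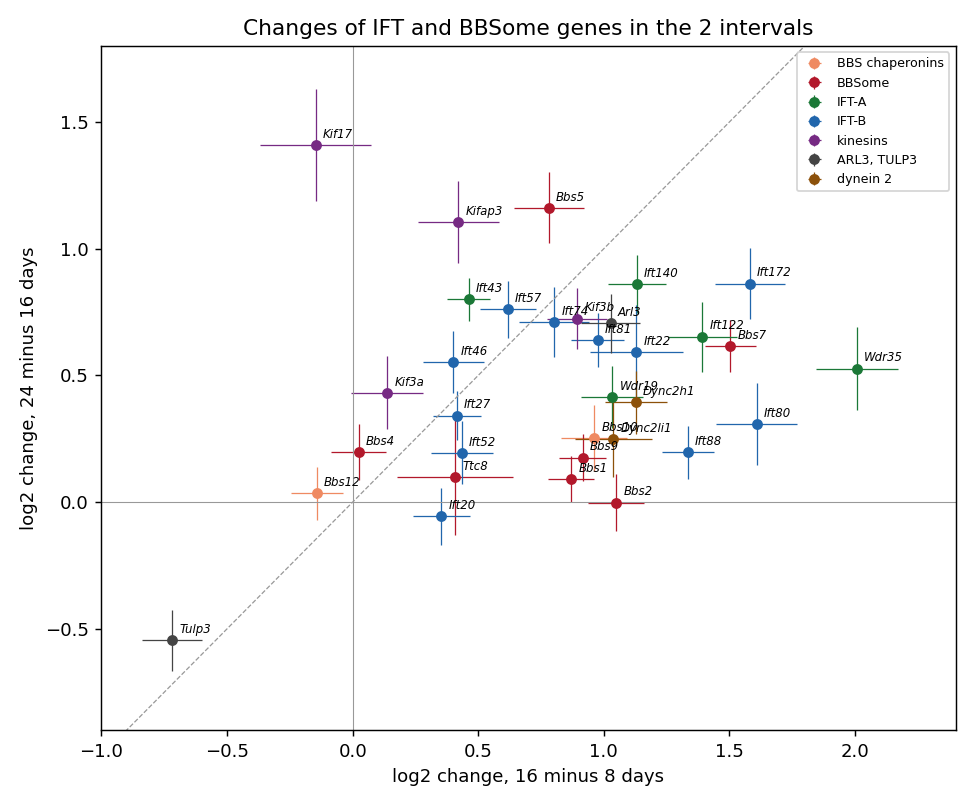
Change of each member at 24 against 16 days (vertical axis, log2) against its change at 16 against 8 days (horizontal axis, log2), with bars of 1 moderated SE, colours for roles and a dashed line where both are equal. Both axes share the 16-day arrays; Kif17, Kifap3 and Bbs5 have the 3 highest changes of the second interval, Wdr35 the highest of the first, and Tulp3 lies below 0 on both.

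The other genes of the pathway were taken from 7 lists with 63 measured genes that are no members. Of these 33 rose and 6 fell at 16 against 8 days (median 0.38), beside 10.4% and 14.3% of all genes. At 24 against 16 days 28 rose and 4 fell (median 0.30), beside 13.2% and 20.1%. At 24 against 8 days 40 rose and 9 fell (median 0.85), beside 19.2% and 35.2%. The same shares apply to the lists of the pathway, markers and axoneme below, and some counts of falls in short lists are near them. The 7 further IFT subunits with other symbols gave 5 rises in the first interval and 2 in the second. Ttc26, which encodes IFT56, rose by 2.19 ± 0.19 at 16 against 8 days (adjusted p = 2.89e-05). Ttc30a1, which encodes an IFT70, rose by 0.58 ± 0.13 at 24 against 16 days (adjusted p = 0.00763).

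Of 7 further Bardet-Biedl genes, 5 rose and 1 fell in the first interval and 3 rose in the second. The transition zone protein gene Cep290 rose by 1.49 ± 0.19 (adjusted p = 0.000376) at 16 against 8 days. Wdpcp, a planar polarity effector, rose by 0.83 ± 0.15 (adjusted p = 0.00271) at 24 against 16 days. The ubiquitin ligase gene Trim32 fell by 0.56 at 16 against 8 days (adjusted p = 0.0147), a call lost when any 1 of 8 days replicates 2 and 3 and 16 days replicate 1 was left out (adjusted p up to 0.0601).

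Among 10 dynein 2 partners and further kinesins, 4 rose and 1 fell in the first interval, and 3 rose and 2 fell in the second. The roadblock light chains went opposite ways. Dynlrb2 rose by 1.73 ± 0.18 and 1.39 ± 0.18 (SE, adjusted p = 0.000111 and 0.00055) in the 2 intervals, and Dynlrb1 fell by 0.51 and 0.72 (adjusted p = 0.00612 and 0.00107). Among 6 ciliary kinases 4 rose in each interval. Mak, the male germ cell-associated kinase, rose by 2.34 ± 0.13 and 1.22 ± 0.13 (SE, adjusted p = 1.39e-06 and 0.000132).

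The 9 genes of the ARL3 pathway for lipid-modified cargo were mixed, with 3 rises and 2 falls in the first interval and 5 rises and 1 fall in the second. Rabl2, a small GTPase, rose by 0.69 ± 0.09 at 16 against 8 days (adjusted p = 0.000343). Inpp5e, the ciliary phosphoinositide phosphatase, rose by 0.89 ± 0.16 at 24 against 16 days (adjusted p = 0.00293). Rp2, the protein that makes ARL3 hydrolyse GTP, fell by 0.62 at 16 against 8 days (adjusted p = 0.0247), a call lost when any 1 of 8 days replicates 2 and 3 and 16 days replicates 1 and 2 was left out (adjusted p up to 0.0872). The carrier gene Unc119b fell by 0.38 at 24 against 16 days (adjusted p = 0.0491), a call lost when any 1 of 8 days replicates 2 and 3, 16 days replicates 1 and 3 and 24 days replicates 1, 2 and 3 was left out (adjusted p up to 0.181).

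Of 17 transition zone genes, whose proteins form the gate at the base of the cilium, 9 rose and 1 fell in the first interval, and 6 rose and 1 fell in the second. Tmem67 rose by 1.70 ± 0.14 at 16 against 8 days (adjusted p = 2.33e-05) and Rpgrip1 by 1.04 ± 0.20 at 24 against 16 days (adjusted p = 0.00397). Cc2d2a fell by 0.72 and 0.49 (adjusted p = 0.00198 and 0.0129), the second call being lost when any 1 of 16 days replicate 1 and 24 days replicate 1 was left out (adjusted p up to 0.0584).

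The 7 regulators were RFX factors, FOXJ1, CREM and its coactivator, which are known to act on genes of cilia or of spermatids. Of these 3 rose and 1 fell in the first interval, and 5 rose in the second. Rfx4 had the largest first rise, 2.14 ± 0.12 (adjusted p = 1.41e-06). Rfx2, a factor that mouse spermatids need and a gene chosen after its values were seen, rose by 1.90 ± 0.13 and 0.81 ± 0.13 (SE, adjusted p = 6.6e-06 and 0.00194). Fhl5 fell by 0.75 at 16 against 8 days (adjusted p = 0.0253) and rose by 3.62 ± 0.21 at 24 against 16 days (adjusted p = 2.36e-06). The fall was not called when any 1 of 8 days replicates 1, 2 and 3 and 16 days replicates 1 and 3 was left out (adjusted p up to 0.0844).

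The promoters of the members were searched for letters that these factors are known to bind. RefSeq start sites (GRCm38.p6) gave a window of 300 bases for 29 of the 33 members, reaching from 250 bases before the start of the gene. Both strands were searched for GTTGCC, the half-site of the RFX X-box, TGACGTCA, the full site of CREM, and GTAAACA, a core of FOXJ1. GTTGCC was present in 12 of the 29 members (41.4%), in 14.1% of the 27025 genes in the table and in 12.5% of its 32851 windows. TGACGTCA was present in 2 of 29 (6.90%), Kif17 and Ift57, in 2.03% of all genes and in 1.79% of all windows. GTAAACA was in none of the 29, in 4.05% of all genes and in 3.65% of all windows, which says only that these letters are not in these windows. A match is a run of letters and no binding was measured.

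The windows of 86 bases around the half-site are shown for the 5 members whose window lies wholly before the start of the gene, 5′ to 3′ on the strand of the gene. Capitals mark the half-site GTTGCC or its reverse complement GGCAAC, and the CREM site TGACGTCA in Kif17. They come from chr4:138262138-138262223 (plus strand) for Kif17, chr11:53567231-53567316 (plus strand) for Kif3a, chr16:49699167-49699252 (plus strand) for Ift57, chr17:25015937-25016022 (plus strand) for Ift140 and chr3:36613465-36613550 (minus strand) for Bbs7.
Kif17: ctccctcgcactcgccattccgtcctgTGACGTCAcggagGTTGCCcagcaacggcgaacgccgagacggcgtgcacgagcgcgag
Kif3a: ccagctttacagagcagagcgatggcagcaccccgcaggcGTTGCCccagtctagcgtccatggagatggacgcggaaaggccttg
Ift57: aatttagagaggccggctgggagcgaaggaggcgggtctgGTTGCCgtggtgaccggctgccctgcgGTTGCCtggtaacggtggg
Ift140: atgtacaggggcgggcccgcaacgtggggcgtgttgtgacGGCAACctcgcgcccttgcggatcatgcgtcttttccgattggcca
Bbs7: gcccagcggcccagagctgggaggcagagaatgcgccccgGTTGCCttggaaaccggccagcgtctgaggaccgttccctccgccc
The half-site began 73 bases before the start in Kif17, 98 in Kif3a, 109 in Ift140 and 121 in Bbs7. In Ift57 it occurred 2 times, at 87 and 60 bases before the start, and the CREM site of Ift57 lies outside the window shown. Not all of these 5 genes were called in the first interval. Ift140, Bbs7 and Ift57 rose by 1.13, 1.50 and 0.62 at 16 against 8 days, whereas Kif17 and Kif3a changed by -0.15 and 0.14 and were not called. Of the 12 members with the half-site, all but Kif17 and Kif3a rose in that interval. Of all 33 members 26 rose, a set that holds these 12. It also holds Ift122, Ift80, Ift81 and Dync2li1, which rose but gave no window to search.

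Markers of other cells in the testis moved over the same ages. The mean of the 33 members was -0.94 to -0.66 at 8 days, -0.06 to 0.11 at 16 days and 0.46 to 0.50 at 24 days across arrays. At the same ages that of 10 spermatocyte markers was -2.69 to -2.51, 0.04 to 0.38 and 0.46 to 0.68, with 10 of 10 rising in the first interval and 3 in the second. At these ages that of 10 spermatid markers was -0.29 to 0.03, -0.28 to 0.00 and 3.59 to 4.65, with 10 of 10 rising in the second interval. None of the 10 was called by limma in the first interval, and 0 passed an unadjusted p of 0.05. Spermatocyte markers were thus lowest at 8 days, where most members were lowest, and spermatid markers stood out at 24 days, where most members were highest. Their part in the result was not tested.

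Most markers of earlier germ cells and of somatic cells ran downward, but the Leydig cell markers were mixed in the second interval (median change 0.48). Of 10 spermatogonial markers 9 fell in the first interval and 10 in the second, and their mean was 0.60 to 0.69, -0.31 to 0.07 and -0.91 to -0.73 at 8, 16 and 24 days. Sertoli cells, Leydig cells, endothelium and macrophages are among the somatic cells of the tissue and make no flagellum. Of 9 Sertoli cell markers 6 fell in the first and 5 in the second interval (mean at the 3 ages 0.55 to 0.83, -0.22 to 0.09 and -0.61 to -0.35). Of 5 Leydig cell markers 5 fell in the first interval, and 1 rose and 1 fell in the second (mean at the 3 ages 1.32 to 1.72, -0.87 to -0.33 and -1.07 to -0.11). Of 8 endothelial and macrophage markers 5 fell in the first and 2 in the second interval (mean at the 3 ages 0.35 to 0.59, -0.04 to 0.07 and -0.35 to -0.15). Their part in the result was not tested.

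Multiciliated cells of the efferent ducts also use these genes. A list of 8 markers joined Mcidas, Gmnc and Ccno of these cells with Pax8, Lcn8, Lcn9, Defb15 and Rnase10 of the ducts and epididymis. Its counts and mean are thus no reading of multiciliated cells alone. Of the 8 markers 1 fell in the second interval. None was called in the first by limma, where 0 passed an unadjusted p of 0.05. Their mean was -0.06 to 0.27 at 8 days, -0.03 to 0.30 at 16 days and -0.15 to -0.10 at 24 days. The values are centred on each gene, so that they do not tell whether any marker is at 0.

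**Figure D4:**
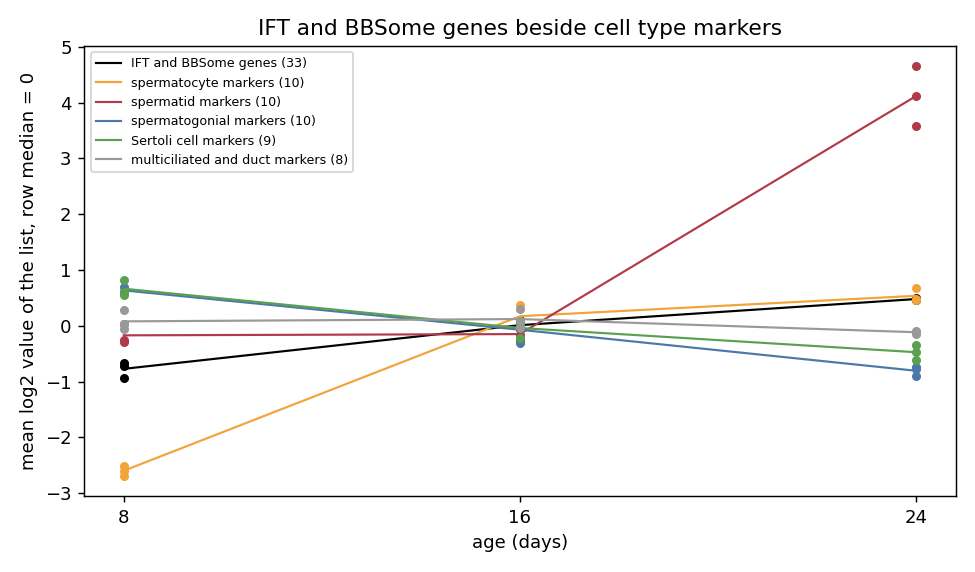
Mean log2 value of the 33 members and of the marker lists in each array, relative to the median of each gene, by age in days, with 1 point per array and lines through the mean of 3 arrays. Spermatocyte markers step up between 8 and 16 days, spermatid markers between 16 and 24 days, and the members climb over both intervals.

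Genes of other parts of the axoneme and of the centriole were counted over the same ages. Of 18 axonemal dynein genes, which encode the arms that bend the flagellum, 13 rose at 16 against 8 days, 14 rose and 1 fell at 24 against 16 days, and the medians were 1.73 and 0.84. Of 5 radial spoke genes 3 rose and then 4, with medians of 0.87 and 1.16. Of 37 centrosomal Cep genes 19 rose at 16 against 8 days, 15 rose and 3 fell at 24 against 16 days, and the medians were 0.35 and 0.26. At 24 against 8 days the medians were 1.38 for the 33 members, 2.75 for axonemal dyneins, 2.38 for radial spoke genes and 0.69 for Cep genes. These lists are set beside each other as counts and medians, and no difference between them was tested.

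**Figure D5:**
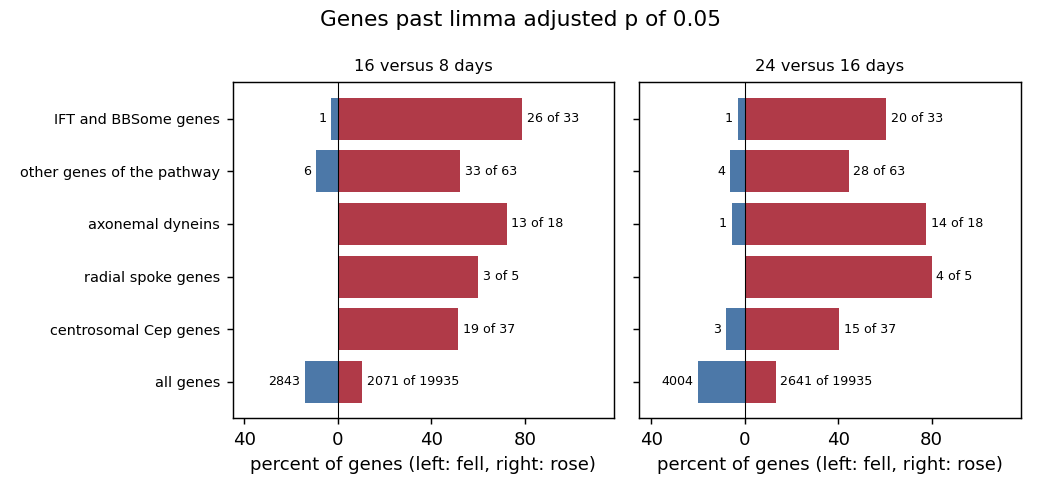
Percent of genes of each list that rose (right of 0) or fell (left of 0) at a limma adjusted p under 0.05, at 16 against 8 days and at 24 against 16 days, with counts beside the bars. In the first interval 26 of 33 members rose, against 2071 of all 19935 genes, and in the second 20 of 33, against 2641.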

How the data were processed

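RNA of whole testis was labelled and hybridised to Affymetrix arrays, per the labels' protocols. The authors deposited log2 values for 28815 rows, each centred on its median over the 9 arrays. The array's background correction, normalization, summary and genome build are not given in the sources used here. Every row has at least 1 blank cell, and with blanks set to 0 every row has a median of 0, so blanks were read as the array at the median. Rows with exactly 1 gene symbol (21780) were averaged by gene, which left 19935 genes. Rows with several symbols (1605) or none (5430) were left out. Bbs1, Bbs12 and Ift43 had more than 1 blank.

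Samples were grouped by the age in their titles. The test was that of limma 3.58.1 under R 4.3.3, with lmFit on a mean for each age and eBayes. It used the 9 arrays together and no filter, with 6 residual degrees of freedom and 3.82 from the prior. Contrasts were the 3 comparisons and the second minus the first interval, with a moderated F over the 3 ages. Tests were 2-sided with Benjamini-Hochberg adjustment over all genes and a threshold of 0.05. The code of the fit was run on simulated independent genes, a small part of them changed at 16 days. That run does not test the calls made on these arrays.

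The members and lists were chosen with earlier results of these data known. All members are named, with every array value for those called with a change of at least 1 and for both ends of the range of a role, and those of other members partly as means. From a pathway list the largest called rise and fall of each interval are named. Titles number only 2 arrays of each age, and the number of replicate 3 is a name. The deviations from the mean of the 2 numbered arrays of an age, over all genes, correlated between arrays of 1 number by -0.44, 0.22 and -0.20. These arrays include 8 days replicate 1 and 16 days replicate 2, so that the correlations do not decide whether the numbers are pairs. The numbers were not used as a block. Alternatives were centred arrays, blanks left missing, rows with 1 blank, each row on its own, array weights, robust eBayes, the arrays of the ages compared, 2 arrays left out, a replicate block and each array left out. The 6 numbered arrays with no block were chosen as an alternative after seeing the data. Promoters and chromosomes came from RefSeq (GRCm38.p6). Python 3.11.15, pandas 2.3.3, numpy 2.4.6 and matplotlib 3.10.9 were used.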

Additional observations from a re-analysis of the deposited data

Results flagged for a closer look

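The size of the change differed between the 2 intervals for 8 members, by limma's test of the second minus the first interval over all genes. Of all genes 5.38% passed that test in either direction. The 2 intervals share the 16-day arrays. The difference was -0.78 for Bbs1, -1.05 for Bbs2, -0.89 for Bbs7 and -0.74 for Bbs9, 4 subunits of the BBSome (adjusted p = 0.0168, 0.0108, 0.0163 and 0.0266). It was -1.48 for the IFT-A gene Wdr35, -1.14 for Ift88 and -1.30 for Ift80 of IFT-B (adjusted p = 0.0132, 0.00435 and 0.0238). For the kinesin gene Kif17 it was 1.55 (adjusted p = 0.0455). Apart from Ift88 and Bbs2, each of these calls was lost when single arrays were left out. No group holds 4 or more arrays, so that single arrays were not tested for standing apart within an age.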

How the results depend on the processing

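Of 78 called changes of members over the 3 comparisons, none turned direction under any of 19 alternatives, and 57 stayed past the threshold under all of them. Leaving out 1 array gave 23 to 25 members that rose at 16 against 8 days, 14 to 21 at 24 against 16 days and 28 to 30 at 24 against 8 days, 1 that fell in each comparison, and 28 to 30 that differed among the ages. The number whose intervals differed ran from 2 to 8, and was 3 with blanks left missing, a setting that removes at least 1 value from each member and lost 10 of the 78 calls. With array weights 2 members fell at 24 against 8 days, Tulp3 and Bbs12 (-0.18, adjusted p = 0.0221), and Bbs4 and Ttc8 were called as rises (adjusted p = 0.0195 and 0.00975). The values of Bbs12 in 24 days replicates 2 and 3 were deposited blank. Centring each array lost none of the 78 calls and 2 of the 8 interval differences, Bbs9 and Ift80, while the count of all genes that fell at 24 against 16 days was 1927 with it and 4004 without.

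The arrays of 1 number were not shown to be pairs. The fit with the replicate block on the 6 numbered arrays gave 7 members that rose and 0 that fell at 24 against 16 days, 0 that fell at 16 against 8 days and 1 whose intervals differed. The same 6 arrays with no block gave 8 that rose and 0 that fell at 24 against 16 days, and 0 whose intervals differed. With 2 arrays an age, these fits use fewer samples.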
